A study of Mus musculus with 18 samples.

Results

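The class I antigen presentation genes described here are 10 genes of the pathway that shows peptides from inside the cell at the cell surface. They are the heavy chains H2-K1, H2-D1 and H2-T23, the light chain B2m, the transporter subunits Tap1 and Tap2, the loading factor Tapbp, the immunoproteasome subunits Psmb8 and Psmb9, and the activator Nlrc5. They were found as the rows whose Ensembl identifier carries these symbols in the mouse build GRCm38, and all 10 were found among 53465 gene identifiers. The genes were chosen by differences between mutants and controls that earlier results on these same libraries had shown, so every difference between genotypes below is a description, and nothing is read from the counts of calls given for it. The anterior and posterior pieces were compared within each genotype, a contrast that the choice did not use. The same libraries entered the choice, so these tests are not independent of it, least of all in the mutants.

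RNA was sequenced from 9 mouse embryos collected at embryonic day 9, with 20 to 24 somites, each cut into an anterior and a posterior piece (18 libraries). The mutants (DKO, 4 embryos) carried a conditional deletion of Meis1 and Meis2, a pair of homeobox genes, made with Delta1Cre, a Cre recombinase named for the Notch ligand gene Delta1 (Dll1), and the others were controls (5 embryos). The alleles of the controls, the strain background and the share of cells that lost both genes were not given in the sources used here. The anterior piece was the axis that bears the older somites, without the head region that lacks them, and the posterior piece was the axial bud together with the newest somites, so there were 5 libraries of each piece from controls and 4 of each piece from DKO embryos. Each library is a mixture of all cell types of its piece, so fewer cells of a type and less RNA per cell cannot be told apart.

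Class I molecules consist of a membrane-bound heavy chain and the soluble light chain beta-2-microglobulin. Peptides cut by the proteasome are pumped into the endoplasmic reticulum by the Tap1-Tap2 transporter, and tapasin, the product of Tapbp, holds empty heavy chains beside that transporter until a peptide is bound. Early embryonic cells are known for little class I at the surface, and interferons raise the genes of the whole pathway in most cell types. Nlrc5 is a transcriptional activator that acts on class I promoters with the RFX, CREB and NF-Y factors, while NF-kappaB and interferon regulatory factors (IRF) bind an enhancer just upstream.

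The promoters of the 2 classical heavy chains and of the light chain are shown because they place these elements side by side, and that of Tap1 because it differs from them. Each is the 250 bases before the start listed first for the gene, from the RefSeq promoter table of GRCm38.p6, 5′ to 3′ on the strand of the gene. Capitals mark matches on either strand to the NF-kappaB consensus, AANNGAAA (IRF), TGACG (the core of a cAMP response element, where CREB factors bind) and CCAAT (NF-Y). In H2-K1 and H2-D1 the NF-kappaB consensus matched at 2 overlapping places.
H2-K1, chr17:34000348-34000597, minus strand: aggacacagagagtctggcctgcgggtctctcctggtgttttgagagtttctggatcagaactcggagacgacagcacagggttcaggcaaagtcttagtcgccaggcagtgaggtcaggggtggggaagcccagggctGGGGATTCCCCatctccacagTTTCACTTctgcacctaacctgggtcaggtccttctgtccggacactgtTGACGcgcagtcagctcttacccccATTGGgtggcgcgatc
H2-D1, chr17:35262844-35263093, plus strand: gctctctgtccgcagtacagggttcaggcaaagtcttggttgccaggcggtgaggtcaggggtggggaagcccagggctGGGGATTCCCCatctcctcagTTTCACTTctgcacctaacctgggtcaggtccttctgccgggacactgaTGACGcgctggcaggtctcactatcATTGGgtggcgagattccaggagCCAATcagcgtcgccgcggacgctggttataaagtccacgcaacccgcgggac
B2m, chr2:122147437-122147686, plus strand: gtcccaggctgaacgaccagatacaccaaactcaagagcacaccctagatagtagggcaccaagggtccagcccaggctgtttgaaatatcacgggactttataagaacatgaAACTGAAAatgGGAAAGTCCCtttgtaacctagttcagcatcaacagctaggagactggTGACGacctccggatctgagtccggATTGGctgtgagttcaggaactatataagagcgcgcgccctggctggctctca
Tap1, chr17:34187306-34187555, plus strand: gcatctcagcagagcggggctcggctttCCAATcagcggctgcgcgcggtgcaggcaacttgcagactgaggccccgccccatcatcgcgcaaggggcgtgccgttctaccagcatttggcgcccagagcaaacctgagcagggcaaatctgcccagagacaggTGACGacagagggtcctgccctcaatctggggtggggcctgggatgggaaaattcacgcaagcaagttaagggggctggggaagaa

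The promoters of H2-K1 and H2-D1 were alike over 177 aligned columns, of which 91% were identical. Both held GGGGATTCCCC, then TTTCACTT, then TGACG, then ATTGG, with the same spacing of 21, 49 and 25 bases between the first bases of successive matches. In the B2m window the order of the upstream pair was turned, AACTGAAA before GGAAAGTCCC, and TGACG and ATTGG again lay 25 bases apart. The Tap1 window held TGACG and CCAAT alone, and 225 of its bases also belong to the Psmb9 window, since these 2 genes start back to back on opposite strands. Of the 8 genes with a promoter in the table (Tap2 and Nlrc5 were missing), 3 matched the NF-kappaB consensus, 4 AANNGAAA, 5 TGACG, 7 CCAAT and 1 (Psmb8) the interferon-gamma element TTCNNNGAA. Among 27025 RefSeq promoters the shares were 7.01%, 21.6%, 17.9%, 34.5% and 7.18%, in the same order. Of 11 other heavy chain genes of the family, 6, 9, 5, 8 and 1 held them. A match is only a match of letters in this window. The spellings were chosen after these promoters were read, and the windows of H2-K1 and H2-D1 are near copies. Nothing is therefore read from the counts beside the shares.

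By position, 8 of the 10 genes lie within 2.117 Mb of the H2 complex, the mouse major histocompatibility complex, from chr17:33915899 to chr17:36032855. In order of their starts these are Tapbp, H2-K1, Psmb9, Tap1, Psmb8, Tap2, H2-D1 and H2-T23. B2m lies at chr2:122147686-122153083 and Nlrc5 at chr8:94434356-94527272. All 10 are annotated as protein coding.

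Library totals ran from 12.7 to 38.2 megacounts of expected counts (estimated reads per gene), so that 3 counts, taken as the floor, correspond to 0.0786 to 0.237 CPM (counts per megacount). Marker genes of the axial bud summed to 230 to 426 scaled CPM in the posterior and 17.9 to 23.4 in the anterior libraries, as the piece labels say. Both libraries of 1 embryo, control 1, went against their sex label by Y-linked genes. Its 2 libraries shared the mismatch, and leaving that embryo out changed no call on the 10 genes. No library was a copy of another, since a share of at most 0.0082 of the values was equal between any 2.

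Levels spanned a wide range between the genes. CPM were divided by the length in kb of all annotated exons of a gene, which need not be the length transcribed here. For H2-K1 these exons cover 2938 bases and the longest coding transcript 1619, against 2579 and 2102 for H2-D1. The order of genes with close values, such as these 2, therefore depends on the length used. On this scale of CPM per kb of exon, B2m stood at 27.5 ± 3.13 (SD over 18 libraries), above H2-D1 at 7.94 ± 1.40, H2-K1 at 6.71 ± 2.03 and Tapbp at 3.52 ± 0.379. H2-T23, which encodes the nonclassical chain Qa-1, stood at 0.525 ± 0.196 and Tap1 at 0.274 ± 0.127. Tap2 (0.0515 ± 0.0343), Psmb8 (0.0444 ± 0.0367), Psmb9 (0.0394 ± 0.0304) and Nlrc5 (0.0135 ± 0.0108) closed the order. The library ranges of B2m and H2-D1 were apart, and so were those of Tapbp and H2-T23 and those of Tap1 and Tap2. The other neighbours in the order overlapped: H2-D1 exceeded H2-K1 in 13 of 18 libraries, H2-T23 exceeded Tap1 in 17, Tap2 exceeded Psmb8 in 7 and Psmb8 exceeded Psmb9 in 9. H2-K1 exceeded Tapbp in all 18 libraries although their ranges touched, and Psmb9 exceeded Nlrc5 in 13.

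**Figure D1:**
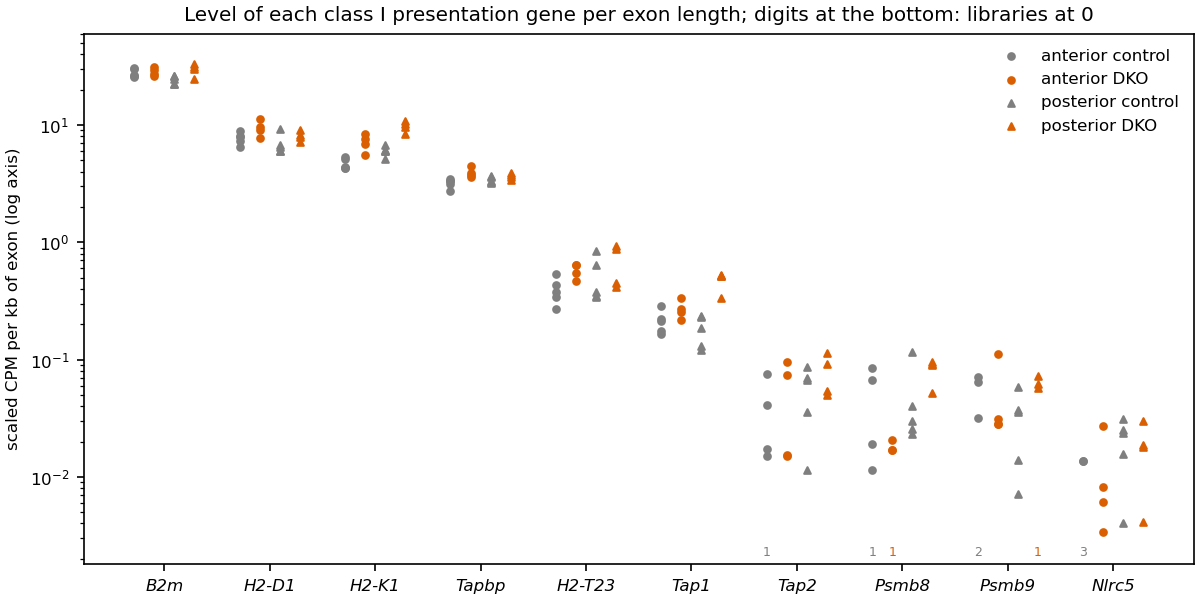
Scaled CPM per kb of exon on a log axis for the 10 class I presentation genes, 1 symbol per library, with groups by colour and shape and with the number of libraries at 0 printed at the bottom. B2m is highest at 27.5 and Nlrc5 lowest at 0.0135 on average, and Tap2, Psmb8, Psmb9 and Nlrc5 lie at or near the level of a few counts.

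The immunoproteasome subunits, Tap2 and Nlrc5 were at or near the detection limit. Tap2, the partner of Tap1 in the transporter, had 0 to 10 expected counts per library, with 3 or fewer in 6 of 18. Psmb8, an immunoproteasome subunit that replaces Psmb5, had 0 to 8 counts, with 3 or fewer in 10 libraries. Psmb9, which replaces Psmb6, had 0 to 6.72 counts and Nlrc5 had 0 to 5, with 3 or fewer in 9 and 11 libraries. In all of these, 1, 2, 3 and 3 libraries were at 0, in the order Tap2, Psmb8, Psmb9 and Nlrc5. None of the 4 passed the filter on low counts in any comparison. With no filter, edgeR called 0 of the 4 along the axis in either genotype, where it called 11.7% of 31118 genes in the controls and 9.4% of 30638 in the mutants. At an unadjusted p below 0.05 lay 0 of the 4 in the controls and 1 in the mutants, beside 21.6% and 18.4% of all genes in these fits. That gene was Psmb8, with a fitted difference of 2.38 (SE 0.754, edgeR adjusted p = 0.0604). The Psmb8 counts were 8, 5, 6 and 6 in the posterior DKO and 2, 0, 1 and 2 in the anterior DKO libraries, against 3, 2, 2, 4 and 6 in the posterior and 4, 1, 0, 5 and 1 in the anterior controls. The remaining 6 genes passed the filter, and what follows concerns them.

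H2-K1, a classical heavy chain, was higher in the posterior than in the anterior piece. In scaled CPM (CPM after TMM scaling, by the trimmed mean of M values), the anterior control libraries 1 to 5 had 12.9, 12.7, 12.8, 15.8 and 15.2, and the posterior libraries of the same embryos had 15, 17.5, 17.9, 17.7 and 19.9. The posterior value was the higher in 5 of 5 embryos, and the groups overlapped only through the lowest posterior library (control 1) and the 2 highest anterior ones (control 4 and 5). The means were 17.6 ± 1.74 and 13.9 ± 1.5 (SD, n = 5 each). H2-K1 rose by 0.34 on the log2 scale (SE 0.0963, edgeR adjusted p = 0.0198). In the mutants the anterior libraries 1 to 4 had 22.2, 20.1, 24.6 and 16.2, and the posterior libraries had 31.7, 24.7, 28.4 and 29.8. The mutant groups did not overlap, and the posterior value was the higher in 4 of 4 embryos. H2-K1 rose by 0.47 (SE 0.132, edgeR adjusted p = 0.0333), from 20.8 ± 3.58 to 28.6 ± 2.95 (SD, n = 4 each). The posterior mutant libraries also entered the genotype differences that chose the genes (28.6 against 17.6 in the posterior controls for H2-K1). The call in the mutants is thus not independent of the choice and supports nothing by itself. The adjusted p from edgeR was 0.0716 without control embryo 2 and 0.0909 without control embryo 3 in the controls, and 0.141, 0.0600 and 0.0919 without DKO embryos 1, 2 and 4 in the mutants.

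H2-D1, the other classical heavy chain, leaned the opposite way without passing the test. Its scaled CPM were 16.9, 18.7, 20.6, 20.4 and 22.8 in the anterior and 16.7, 15.4, 15.4, 17.2 and 23.8 in the posterior controls. Posterior control 5 stood apart from the other 4 posterior controls, and it was also the only control embryo with the higher value in the posterior piece. The fitted difference was -0.17 (SE 0.125, edgeR adjusted p = 0.369). In the mutants the values were 23.4, 24.8, 29.1 and 20.1 in the anterior and 18.5, 20.5, 21.1 and 23.2 in the posterior pieces, with a difference of -0.22 (SE 0.121, edgeR adjusted p = 0.272). The posterior value was lower in 3 of 4 mutants, with embryo 4 the exception.

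The balance of the classical heavy chains was also described within libraries. The ratio of H2-K1 to H2-D1, each per kb of exon and within 1 library, was 0.614 ± 0.0583 (SD, n = 5) in the anterior and 0.889 ± 0.125 (n = 5) in the posterior controls. In the mutants it was 0.749 ± 0.0588 (n = 4) in the anterior and 1.22 ± 0.198 (n = 4) in the posterior pieces. It was higher posteriorly in 5 of 5 control and 4 of 4 mutant embryos. With these exon lengths (2938 and 2579 bases), H2-K1 was above H2-D1 in 4 of 4 posterior mutant libraries, in 1 of 5 posterior controls and in none of the 9 anterior libraries. Other lengths would scale the ratio of every library by the same factor. They would change which gene is above, but not the order of the libraries. This ratio was chosen after the values of both genes had been seen and was not tested.

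H2-T23 was low and variable. It had 1.25, 0.775, 1.09, 0.977 and 1.55 scaled CPM in the anterior and 1.08, 0.988, 1.01, 1.84 and 2.42 in the posterior controls, a difference of 0.37 (SE 0.310, edgeR adjusted p = 0.440). The mutants had 1.34, 1.85, 1.85 and 1.59 anteriorly and 1.21, 1.29, 2.51 and 2.66 posteriorly, a difference of 0.21 (SE 0.299, edgeR adjusted p = 0.720). Posterior libraries fell into low and high values within both genotypes, and the groups overlapped. H2-T23 overlaps the antisense gene A930015D03Rik over all 3083 bases of its locus, and the median library had 24.6 counts for that gene and 34.0 for H2-T23. Whether the read strand was used in counting was not given in the sources used here, so reads of this pair may be split between them.

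B2m, the light chain, varied little between libraries. The anterior controls had 22.2, 22.6, 22.8, 26.2 and 25.9 scaled CPM and the posterior controls 19.1, 19.2, 21.1, 22.5 and 22.5. The posterior value was lower in 5 of 5 control embryos, although the groups overlapped. The difference of -0.20 (SE 0.0780) missed the threshold without regard to the embryo (edgeR adjusted p = 0.0904) and passed it with the embryo as a block (-0.20, edgeR adjusted p = 0.0178). In the mutants the anterior values were 23.3, 26.7, 25.5 and 22.7 and the posterior values 26.0, 26.6, 21.4 and 28.7, with a difference of 0.07 (SE 0.104, edgeR adjusted p = 0.727) whose sign turned without DKO embryo 4 (-0.03).

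**Figure D2:**
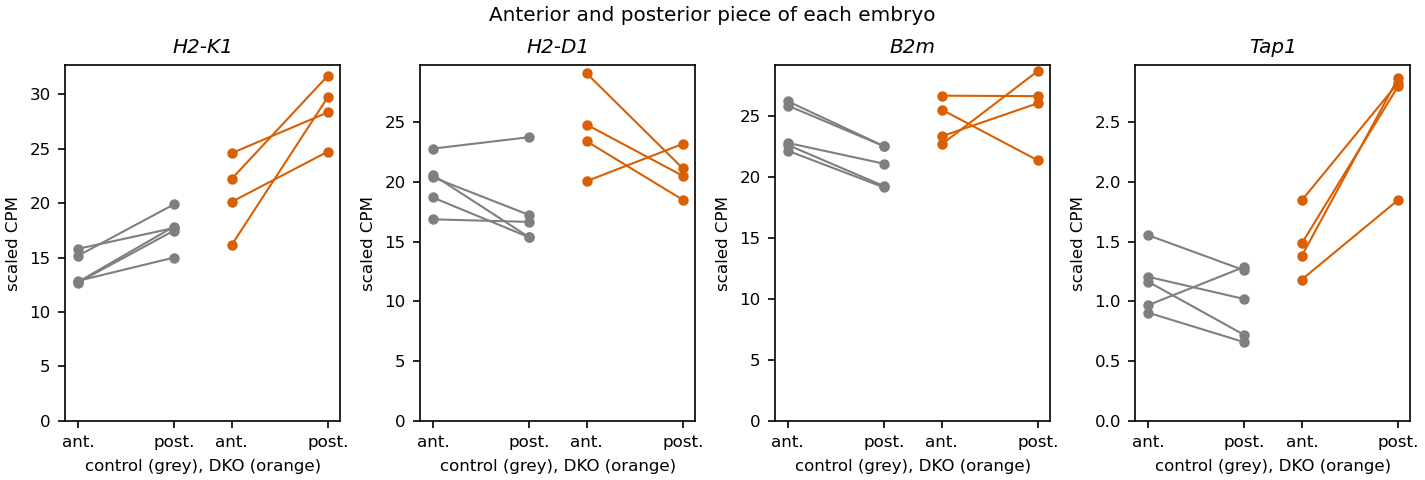
Scaled CPM of H2-K1, H2-D1, B2m and Tap1 in the anterior and posterior piece of each embryo, joined by a line, with controls in grey and DKO in orange. H2-K1 is higher posteriorly in all 9 embryos, B2m is lower posteriorly in 5 of 5 controls, and Tap1 is higher posteriorly in 4 of 4 DKO embryos and in 1 of 5 controls.

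Tap1, a subunit of the peptide transporter, was higher in the posterior piece of the mutants. Its scaled CPM were 1.49, 1.18, 1.85 and 1.38 in the anterior and 2.80, 1.85, 2.83 and 2.87 in the posterior mutant libraries. The highest anterior library (DKO 3, 1.848) lay just under the lowest posterior one (DKO 2, 1.850), and the posterior value was the higher in 4 of 4 embryos. Tap1 rose by 0.81 on the log2 scale (SE 0.222, edgeR adjusted p = 0.0283), from 1.48 ± 0.278 to 2.59 ± 0.493 (SD, n = 4 each). The 4 posterior mutant libraries also gave the genotype difference that chose the genes (2.59 against 0.990 in the posterior controls), so this call is not independent of the choice and supports nothing by itself. The adjusted p from edgeR was 0.166, 0.0631 and 0.135 without DKO embryos 1, 3 and 4, and 0.0697 with no filter on low counts. The controls had 0.906, 0.968, 1.56, 1.21 and 1.17 anteriorly and 0.659, 1.29, 1.26, 1.02 and 0.720 posteriorly, so the groups overlapped. Their difference was -0.22 (SE 0.263, edgeR adjusted p = 0.614), and the posterior value was the higher in 1 of 5 embryos. All of this rests on 11 to 73.9 expected counts per library.

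Tapbp, which encodes tapasin, was nearly level along the axis. The anterior controls had 11.4, 12.0, 12.0, 12.6 and 9.85 scaled CPM and the posterior controls 11.9, 11.7, 13.1, 12.0 and 13.4, with a difference of 0.10 (SE 0.0871, edgeR adjusted p = 0.472). The mutants had 16.2, 13.5, 14.2 and 13 anteriorly and 12.2, 13.1, 14.1 and 13.7 posteriorly, with a difference of -0.10 (SE 0.103, edgeR adjusted p = 0.578). Groups overlapped in both genotypes. Tapbp shares 3422 bases of its locus with Zbtb22 on the same strand, a gene with a median of 885.5 counts per library against 265 for Tapbp. It also overlaps the antisense gene Gm19412 (median 19.1 counts) over 1207 bases, and 17.9% of the 61-base stretches of its transcript occur in that gene as well.

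Along the axis, 1 of the 6 tested genes (H2-K1, higher) passed the threshold in the controls, where 25.4% of 15294 tested genes passed it, 12.1% higher and 13.3% lower. In the mutants 2 of 6 (H2-K1 and Tap1, both higher) passed, where 18.5% of 15777 genes passed, 8.76% higher and 9.7% lower. The groups of 0 of 6 genes in the controls and of 2 of 6 in the mutants did not overlap, against 20.1% and 23.5% of all tested genes (9.44% and 10.9% higher). A count of 1 or 2 among 6 is near these shares. The median difference of the 6 genes was -0.04 in the controls and 0.14 in the mutants, beside -0.01 and 0.01 over all tested genes. Whether the axial difference of a gene itself differed between genotypes is part of the genotype comparison and is given there as a description. The genotype comparisons use the same libraries as the axial ones.

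**Figure D3:**
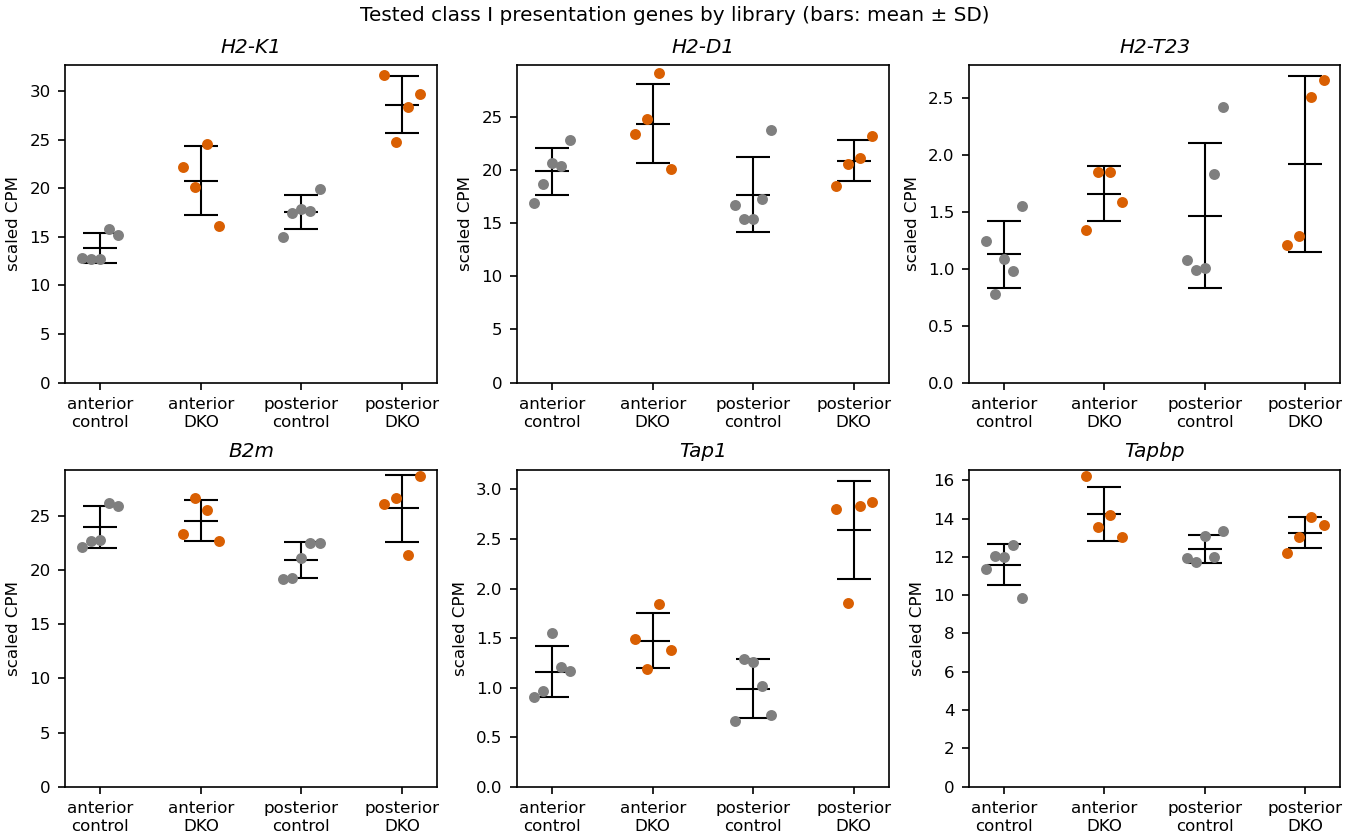
Scaled CPM of the 6 tested genes by group, 1 point per library, with bars at the mean ± SD. Every axis starts at 0, and the orange DKO points of H2-K1 lie above the grey control points of the same piece in both pieces, as those of Tap1 do in the posterior piece.

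The differences between mutants and controls, which the choice of the genes used, were as follows. H2-K1 averaged 20.8 ± 3.58 in the anterior DKO against 13.9 ± 1.5 in the anterior controls, and 28.6 ± 2.95 against 17.6 ± 1.74 in the posterior pieces. The fitted log2 difference was 0.58 (SE 0.124) anteriorly and 0.71 (SE 0.103) posteriorly, and the groups did not overlap in either piece. The nearest libraries were anterior DKO 4 at 16.2 and anterior control 4 at 15.8, and posterior DKO 2 at 24.7 and posterior control 5 at 19.9.

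Tap1 stood out posteriorly, with 2.59 ± 0.493 in the DKO and 0.990 ± 0.294 in the controls, a log2 difference of 1.38 (SE 0.262) or 2.61-fold with no overlap. Anteriorly it was 1.48 ± 0.278 against 1.16 ± 0.255, a difference of 0.36 (SE 0.227) with overlap. Tapbp showed the reverse distribution, with 14.3 ± 1.41 against 11.6 ± 1.07 and no overlap anteriorly (0.30, SE 0.0970), and 13.3 ± 0.812 against 12.4 ± 0.740 with overlap posteriorly (0.10, SE 0.0897). The fitted change of the genotype difference from the anterior to the posterior piece was 1.03 (SE 0.342) for Tap1 and -0.20 (SE 0.124) for Tapbp.

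The other 3 genes overlapped between genotypes in both pieces. H2-D1 differed by 0.29 (SE 0.115) anteriorly and 0.24 (SE 0.136) posteriorly, and H2-T23 by 0.56 (SE 0.236) and 0.39 (SE 0.360). B2m differed by 0.03 (SE 0.0800) anteriorly and 0.30 (SE 0.103) posteriorly, the latter from 20.9 ± 1.67 to 25.7 ± 3.09. Of the change between pieces, the fit gave 0.12 (SE 0.164) for H2-K1, -0.05 (SE 0.184) for H2-D1, -0.17 (SE 0.445) for H2-T23 and 0.26 (SE 0.127) for B2m.

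All 6 tested genes had a fitted difference above 0 in both pieces (B2m anteriorly at 0.03, and at -0.0061 without DKO embryo 2), with a median of 0.33 anteriorly and 0.34 posteriorly beside 0.00 and 0.01 over all tested genes. None of them passed the threshold in edgeR (0 of 6 in each piece), where 0.0394% of 15238 genes did so anteriorly and 0.0126% of 15936 posteriorly. At an unadjusted p below 0.05 the counts were 4 anteriorly and 3 posteriorly, where 13% and 11% of all genes lay. DESeq2 called 1 anteriorly (H2-K1), where it called 1.94% of all genes, and 2 posteriorly (H2-K1 and Tap1), where it called 1.02%. With limma-voom 0 of 6 were called in both, beside 0.19% and 0.0188% of all genes. The groups of 2 of 6 genes did not overlap in each piece, all higher in the DKO, against 5.07% and 4.29% of all tested genes (2.45% and 2.16% higher). For the change between pieces, edgeR, DESeq2 and limma-voom called 0 of 6, with 1 at an unadjusted p below 0.05 in edgeR, where 0% of 16428 genes were called (0.0609% with DESeq2, 0% with limma-voom) and 3.45% lay below that unadjusted p. As these genotype values chose the genes, nothing is read from the counts or the medians.

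**Figure D4:**
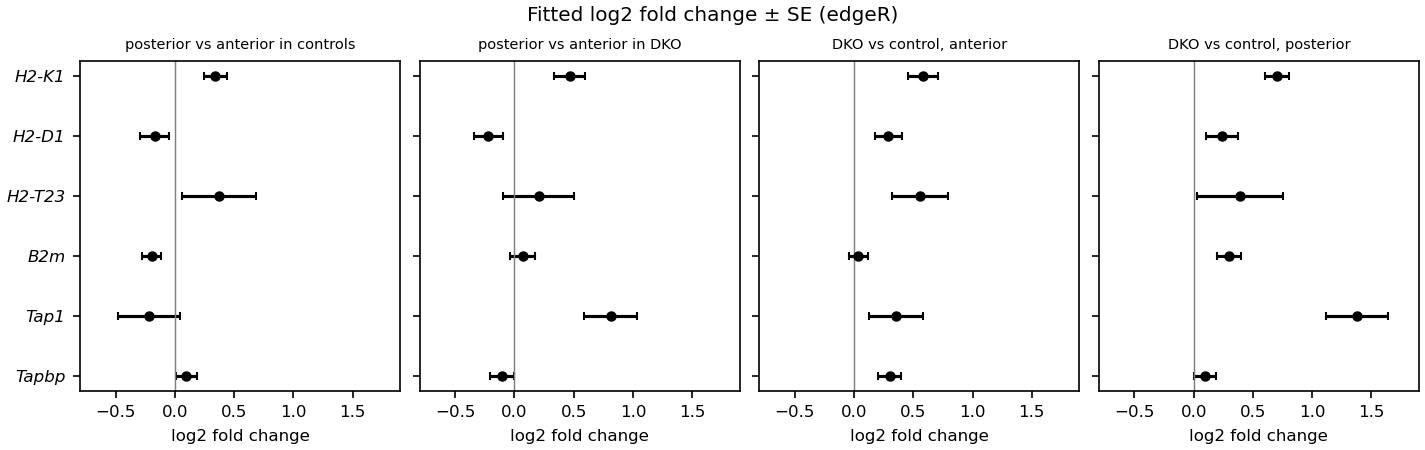
Fitted log2 fold change ± SE of the 6 tested genes, for posterior against anterior in the controls and in the DKO and for DKO against control in the anterior and the posterior pieces. H2-K1 lies above 0 in all 4 panels, and Tap1 reaches 1.38 in the posterior DKO comparison and -0.22 in the controls along the axis.

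The posterior rise of H2-K1 stood beside larger differences in other heavy chain genes, from a list of 20 class I heavy chains and relatives of which 11 were tested in the controls. In the controls 4 rose and 2 fell towards the posterior, with a median of 0.11, where 12.1% of all tested genes rose and 13.3% fell. H2-Q10, a liver-type secreted chain in the adult, averaged 1.81 ± 0.353 scaled CPM posteriorly and 0.385 ± 0.155 anteriorly (SD, n = 5 each), a rise of 2.17 (SE 0.294, edgeR adjusted p = 0.000141). H2-Q6 rose by 1.72 (SE 0.199), H2-Q7 by 0.71 (SE 0.132) and H2-Q4 by 0.58 (SE 0.0941), with edgeR adjusted p between 3.86e-05 and 0.00151. H2-Q6 and H2-Q7 encode Qa-2 chains, which are known from preimplantation embryos. Fcgrt, the heavy chain of the neonatal Fc receptor, which pairs with B2m, fell by 0.90 (SE 0.193, edgeR adjusted p = 0.00414). H2-T22 fell by 0.58 (SE 0.167, edgeR adjusted p = 0.0219), a call lost without control embryo 1, 2, 3 or 5, where edgeR gave 0.0519 to 0.0780.

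In the mutants, which share no library with the controls, the same 4 Q genes rose (2.75 for H2-Q10, 1.99 for H2-Q6, 0.56 for H2-Q7 and 0.67 for H2-Q4) and Fcgrt fell by 1.37. H2-T22 had a difference of -0.44 (SE 0.158, edgeR adjusted p = 0.0891). Of 12 genes of the list tested there, 4 rose and 1 fell, with a median of 0.17, where 8.76% of all tested genes rose and 9.7% fell. Between genotypes 8 of 10 tested genes lay above 0 anteriorly and 10 of 13 posteriorly, with medians of 0.14 and 0.16. Over all tested genes 7625 of 15238 and 8345 of 15936 lay above 0.

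Near-identical copies limit how far these genes can be told apart. Of all stretches of the read length (61 bases) in the longest coding transcript, 28% of H2-Q6, 28.2% of H2-Q7, 29.2% of H2-Q4 and 35.7% of H2-T22 also occur in another gene. The shares were 3.72% for H2-K1, 9.40% for H2-D1, 21.4% for H2-T23, 19.5% for Tapbp, 5.74% for Tap1 and 0% for B2m. The expected counts of H2-K1, H2-D1, H2-T23 and Tapbp were not whole numbers in 18 of 18 libraries, as when reads are divided between genes, and those of B2m were whole in all 18 (within 0.005).

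Of 18 genes of peptide generation and loading, 17 were tested, 4 rose and 0 fell in the controls, with a median of 0.10. Over all genes tested there, 25.4% passed the threshold, 12.1% higher and 13.3% lower. Erap1, the aminopeptidase that trims peptides in the endoplasmic reticulum, rose by 0.55 (SE 0.154, edgeR adjusted p = 0.0186), from 5.23 ± 1.08 to 7.64 ± 1.02 scaled CPM (SD, n = 5 each). Psmb10, the third inducible proteasome subunit, rose by 0.47 (SE 0.140), Psme1, a subunit of the PA28 activator, by 0.24 (SE 0.0743) and Lap3, a leucine aminopeptidase, by 0.21 (SE 0.0434). Psmb10, at 8.11 ± 0.679 anteriorly and 11.2 ± 2.35 posteriorly, was thus measured at a level that Psmb8 and Psmb9 did not approach. The calls of Erap1 and Psmb10 were lost without control embryo 1, 2 or 4, and that of Psme1 without control embryo 1, 2, 3 or 4 and in a fit of all 18 libraries. In the mutants 5 of 17 rose and 0 fell, and Erap1 (0.70, lost without DKO 1), Psmb10 (0.58, lost without DKO 1, 3 or 4) and Psme1 (0.49) were among them. Over all genes tested in the mutants, 8.76% rose and 9.7% fell.

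Of 13 factors of class I transcription, 12 were tested and 1 passed in the controls, beside 25.4% of all tested genes. Irf1, a factor that binds the IRF element, rose by 0.83 (SE 0.179, edgeR adjusted p = 0.00432), from 3.92 ± 0.942 to 6.93 ± 1.17 scaled CPM, and it rose by 1.25 (SE 0.167, edgeR adjusted p = 0.000501) in the mutants. The RFX, NF-Y and CREB genes of the list did not pass the threshold in either genotype. Among 14 genes of interferon signalling, all tested, 2 rose and 2 fell in the controls, beside 12.1% and 13.3% of all tested genes. Ifngr2, a chain of the interferon-gamma receptor, rose by 0.89 (SE 0.0867) and the kinase gene Jak1 by 0.35 (SE 0.0521). Irf8, a factor of the same family as Irf1, fell by 0.94 (SE 0.140).

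Of 26 interferon targets only 12 were tested in the controls, where 6 rose and 0 fell with a median of 0.53. In the mutants 6 of 13 rose and 0 fell, with a median of 0.79. Over all tested genes 12.1% rose and 13.3% fell in the controls, and 8.76% and 9.7% in the mutants. Ifitm1, a membrane protein gene known from the primitive streak and presomitic mesoderm, rose by 4.67 (SE 0.232) in the controls, from 3.19 ± 1.5 to 84.8 ± 14.3 scaled CPM. Irgm1 rose by 2.38 (SE 0.226), Gbp7 by 2.0 (SE 0.301) and Ddx58, which encodes the RNA sensor RIG-I, by 1.22 (SE 0.204). Between genotypes the medians of this list were -0.16 anteriorly and 0.02 posteriorly, while those of the 6 class I genes were 0.33 and 0.34. As genotype differences chose the class I genes, nothing is read from the gap between these medians, which was not tested.

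**Figure D5:**
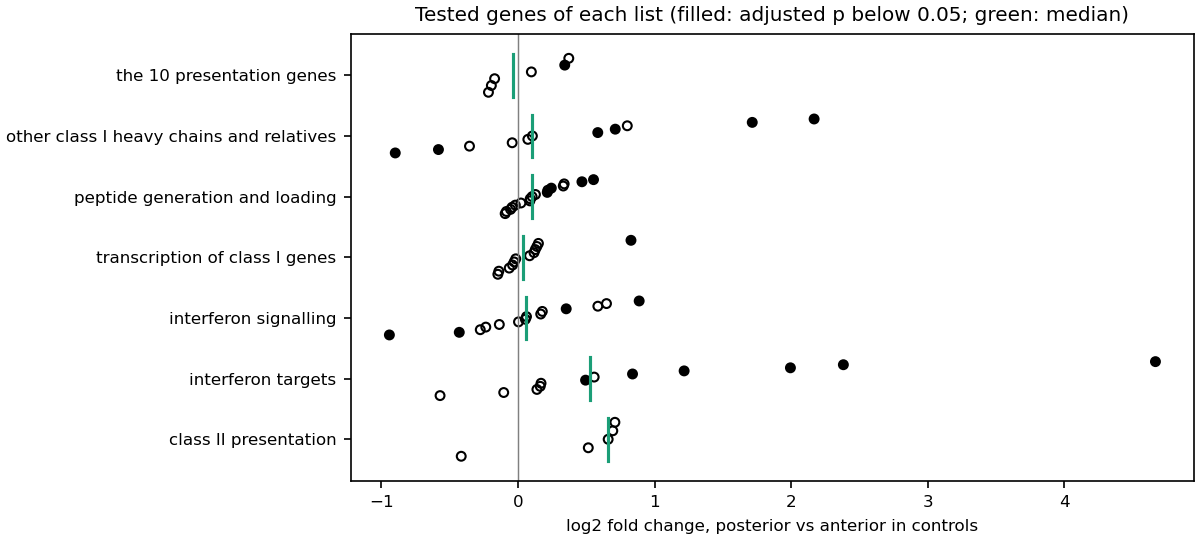
Log2 fold change of posterior against anterior in the controls for each tested gene of the 10 presentation genes and of 6 related lists, filled where the adjusted p is below 0.05, with the median of each list in green. The presentation genes sit between -0.22 and 0.37 with a single filled point, and the interferon targets reach 4.67.

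Genes that neighbour the class I genes in the H2 complex but have other roles were mostly level. Of 47 neighbours 45 were tested in the controls, 3 rose, 3 fell and the median was 0.03, where 12.1% of all tested genes rose and 13.3% fell. Notch4, a Notch receptor gene of endothelium, rose by 0.90 (SE 0.0852, edgeR adjusted p = 7.80e-06). Ddr1, a collagen receptor gene, fell by 0.54 (SE 0.0655) and Pbx2, a cofactor gene of Hox and Meis proteins, by 0.25 (SE 0.0570). Gtf2h4 (0.16), Prrc2a (0.13) and Rgl2 (-0.14) passed too, each with a call lost when some of the control embryos were left out and with no filter on low counts. In the mutants 2 of 45 rose and 2 fell, beside 8.76% and 9.7% of all tested genes. Between genotypes 38 of 45 neighbours lay above 0 anteriorly (median 0.05) and 32 of 45 posteriorly (median 0.09). Over all tested genes 7625 of 15238 and 8345 of 15936 lay above 0.

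Class II and immune cell markers were looked at because white blood cells carry much class I. The 14 markers of leukocytes and macrophages summed to 8.16 to 12.0 scaled CPM in the anterior controls, 8.99 to 12.6 in the anterior DKO, 6.29 to 30.2 in the posterior controls and 7.80 to 15.9 in the posterior DKO. With edgeR 0 of 6 passed the threshold along the axis in either genotype, with 0 at an unadjusted p below 0.05. Between genotypes 0 of 5 passed anteriorly and 0 of 8 posteriorly, with 1 and 0 at an unadjusted p below 0.05. Posterior control 5 had the highest sum, 30.2, and also the highest sum of the 9 class II genes, 68.9, while posterior DKO 4 had 15.9 and 38.8 and the other 16 libraries had class II sums of 15.2 to 26.7. Each of these 2 libraries had the highest H2-D1 (23.8 and 23.2) and the highest H2-T23 (2.42 and 2.66) of its group. Posterior control 5 also had the highest H2-K1 (19.9) and Tapbp (13.4) of its group, and posterior DKO 4 the highest Tap1 (2.87) and B2m (28.7). The 10 lymphocyte and granulocyte markers summed to 0.207 to 1.59, with Cd3g at 0 in every library and 7 of 10 at 3 or fewer counts throughout. With edgeR 0 of 5 tested class II genes passed along the axis in the controls (median 0.66) and 0 of 5 in the mutants (median 0.20), with 0 and 1 at an unadjusted p below 0.05. The part of these cells in the results was not tested. Without control embryo 5 the axial difference of H2-K1 in the controls was 0.34 (edgeR adjusted p = 0.0364). Without DKO embryo 4 the axial differences in the mutants were 0.34 for H2-K1 and 0.72 for Tap1, against 0.47 and 0.81 with it, and neither passed the threshold (edgeR adjusted p = 0.0919 and 0.135). Both calls were also lost without DKO embryo 1 (0.45 and 0.77), whose posterior leukocyte and class II sums were 10.9 and 22.9. What such cells have to do with these losses was not tested.

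Markers of the tissues in the pieces were summed as well. With edgeR 0 neural tube, somite, endothelial, erythroid or yolk sac markers passed the threshold between genotypes in either piece. At an unadjusted p below 0.05 lay 5 of 6 neural tube and 7 of 9 somite markers anteriorly, and 2 and 3 of them posteriorly. Of the tested yolk sac markers, 0 of 4 lay there anteriorly and 3 of 5 posteriorly, and of the 10 endothelial markers 2 and 0. The shares over all tested genes were 13% anteriorly and 11% posteriorly. The 6 neural tube markers summed to 510 to 569 scaled CPM in the anterior DKO against 397 to 518 in the anterior controls, and 267 to 347 against 219 to 308 posteriorly. The 9 somite markers summed to 271 to 368 against 373 to 422 anteriorly and 193 to 371 against 343 to 465 posteriorly. Along the axis 6 of 6 neural tube markers fell and 7 of 7 axial bud markers rose towards the posterior in both genotypes. Of the 9 somite markers 3 rose and 5 fell in the controls, and 1 rose and 3 fell in the mutants. Of the 10 endothelial markers 3 fell in the controls and 2 in the mutants, and 0 rose, along the same axis as the H2-K1 difference. Over all tested genes 13.3% fell and 12.1% rose in the controls, and 9.7% and 8.76% in the mutants. Endothelial markers, from a tissue known to carry class I, summed to 283 to 355 in the anterior DKO against 321 to 367 in the anterior controls and to 200 to 299 against 204 to 345 posteriorly. Trophoblast and decidua markers summed to 0.544 to 18.2, the highest in anterior DKO 3, which also had the highest H2-D1 (29.1), H2-K1 (24.6) and Tap1 (1.85) of its group. The 8 yolk sac endoderm markers had median sums of 3.39 in the anterior and 6.62 in the posterior controls, and of 6.91 and 16.8 in the DKO pieces. Along the axis of the mutants, where H2-K1 and Tap1 rose, 1 of 5 tested yolk sac markers, Afp, rose too (4.45, SE 0.984, edgeR adjusted p = 0.00971), and the trophoblast marker Prl3b1 fell by 2.29 (SE 0.427, edgeR adjusted p = 0.00365). Of these 5 yolk sac markers 3 lay at an unadjusted p below 0.05, where 4632 of 15777 tested genes lay.

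Blood markers were summed in the same way. The 10 primitive erythroid markers had median sums of 3031 in the anterior and 1768 in the posterior controls, and of 2058 and 2809 in the DKO pieces. All 10 lay below 0 along the axis of the controls and above 0 along that of the mutants, with 2 and 7 at an unadjusted p below 0.05 and 0 past the threshold in edgeR. Between genotypes all 10 lay below 0 anteriorly and above 0 posteriorly (0 and 7 at an unadjusted p below 0.05). For the change of the genotype difference between pieces, 8 of 10 lay below that p and edgeR called 0. The adult globin gene Hbb-bs rose by 0.63 along the axis of the mutants (SE 0.170, edgeR adjusted p = 0.0258), and Hbb-bt had a difference of 0.26 (edgeR adjusted p = 0.713). The part of these tissues and of blood in the class I values was not tested.

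Within groups the classical heavy chains and B2m varied together. After the mean of each of the 4 groups was removed, Pearson's r of log2 CPM over the 18 libraries was 0.59 between H2-K1 and H2-D1, 0.51 between H2-K1 and B2m and 0.53 between H2-D1 and B2m, whereas Tapbp had 0.25, 0.20 and -0.09 with them. The libraries of an embryo are not independent of each other, and these values are a description. Of 12560 genes with a mean of at least 50 counts, those most like H2-K1 by the same measure were Zfp983 (0.84), Rbm45 (0.80) and Ccnc (0.78). Those most like H2-D1 were Uri1 (0.84), Anapc4 (0.83) and Ercc1 (0.81), and those most like B2m were Mrfap1 (0.88), Sfpq (0.84) and Dtnbp1 (0.84). Zfp983 lies on chromosome 17 with H2-K1, and none of the 9 is a class I gene.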

How the data were processed

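Poly(A) RNA of 18 libraries was read from a single end (61 bases), per the labels' protocols. The authors deposited expected counts per gene, made with RSEM on GRCm38 per the submitters' processing notes, which also name CASAVA and cutadapt. The aligner, versions and strand setting were not given in the sources used here. Symbols, positions and exon lengths came from GENCODE M21 of the same build (53274 of 53465 identifiers).

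Counts were rounded and tested in edgeR 4.0.16 (R 4.3.3) with TMM scaling, filterByExpr (minimum count 10, minimum total 15) and the quasi-likelihood test. Values were adjusted by Benjamini-Hochberg over all genes tested, with a threshold of 0.05. SE is the log2 fold change over the square root of F, log2 CPM used a prior count of 2, and the code was tested on simulated data. The 10 genes and the lists were chosen with earlier results of these data known, and the motif spellings after the promoters were read.

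The named genes were all 10, up to 4 past the threshold per direction and list in the axial comparison of controls (largest change taken), and the 3 genes most like H2-K1, H2-D1 and B2m. A gene that this rule names is not reported here. Embryos were matched across pieces by genotype, sex label and somite number. Control 1 and control 5 both had 23 somites, so only the sex label, which control 1 went against, told them apart. The residuals of the 9 pairs correlated at 0.256 to 0.570, with 0.482 for control 1 and 0.256 for control 5. Those of other embryos correlated at most at 0.0916, so the embryo was used as a block in an alternative. Without molecular identifiers, the floor speaks for counting error alone. Each embryo is a separate sample. Alternatives were other scalings, DESeq2 1.42.0, limma-voom (limma 3.58.1), other filters, covariates, a fit of all 18 libraries and leaving out each embryo. Sequence shared between genes was counted in 61-base windows of GENCODE transcripts.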

Additional observations from a re-analysis of the deposited data

Results flagged for a closer look

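Among 24 sets of libraries (6 tested genes in 4 groups), 2 held a library far from the others of its group, and chance marks about 1 in 20 such sets. H2-D1 in posterior control 5 was 23.8 scaled CPM, against 17.2 in the next and 15.4 in the lowest of the 5 posterior controls, a gap of 0.777 of the range of the group. The same library had the highest sums of leukocyte markers (30.2) and class II genes (68.9), and their part in this value was not tested. Tap1 in posterior DKO 2 was 1.85 scaled CPM, under the other 3 posterior DKO libraries at 2.80 to 2.87, a gap of 0.934 of the range of the group.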

How the results depend on the processing

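Along the axis of the controls, 1 of the 6 genes (H2-K1) was called in the analysis reported, 2 (B2m as well) with the embryo as a replicate block, and 0 to 1 when an embryo was left out (0 without control 2 or 3). In the DKO 2 were called, 1 (H2-K1) with no filter on low counts or a mean of at least 50 counts, and 0 to 1 when an embryo was left out (0 without DKO 1 or 4). Under the block the call of no other of the 10 genes changed. Between genotypes 0 were called anteriorly, against 1 with DESeq2 or no filter. Posteriorly 0 were called, against 2 with DESeq2 or all 18 libraries in a fit, 1 with no filter, and 0 to 1 when an embryo was left out. Signs turned in the DKO axis without DKO 4 for H2-T23 (-0.0205, otherwise up to 0.419), B2m (-0.0283, up to 0.167) and Prrc2a (0.0288, down to -0.176), and without DKO 1 for Tapbp (0.0062, down to -0.170). The genotype difference of B2m anteriorly turned without DKO 2 (-0.0061, up to 0.0718). The genotype difference's change between pieces turned for H2-K1 without DKO 4 (-0.0001, up to 0.2098), for H2-D1 without DKO 3 (0.0316) or control 5 (0.0148, down to -0.1881) and for H2-T23 without DKO 2 (0.0465, down to -0.3872). Over all genes the anterior genotype count of 6 became 296 with DESeq2, 29 with limma-voom, 83 with no filter, 88 with covariates, 19 in the fit of all 18 and 1 to 57 with an embryo left out. The posterior count of 2 became 162, 14 with no filter, 1 at a mean of 50, 51 in the fit of all 18 and up to 24 with an embryo left out. The interaction count of 0 became 10 with DESeq2 and up to 1 with an embryo left out, and the DKO axis count of 2913 fell to 1728 without DKO 1. The causes were not tested. Depth limits Tap2, Psmb8, Psmb9 and Nlrc5, at 0 to 10 counts a library.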
